A study of Mus musculus with 4 samples.

Results

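The genes described are 10 immediate early transcription factors, chosen by symbol from the 55450 genes in the files: Fos, Fosb and Fosl2 of the Fos family, Jun, Junb and Jund of the Jun family, and Egr1, Atf3, Ier2 and Nr4a1. Their unique molecular identifiers (UMIs, one per captured transcript) were summed per library and cell class in liver nonparenchymal cells. Immediate early genes are transcribed within minutes of a stimulus from regulators already present in the cell, such as serum response factor and CREB, and their messages are short-lived. Fos and Jun proteins pair through leucine zippers to form AP-1, which binds promoters and enhancers of genes for matrix proteases, cytokines and cell cycle entry. In the liver they respond to injury, growth factors and cytokines, and also to the enzymes and warmth used to free cells from tissue, a treatment that induces heat shock genes as well.

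Every mouse was a wild-type C57B6 animal of 18 to 20 weeks, with 1 mouse and 1 droplet library per group. Saline alone was given in the control group. In the group called TAA, thioacetamide, a hepatotoxin that causes fibrosis, was injected intraperitoneally for 12 weeks. To those injections the last groups added celecoxib, an inhibitor of cyclooxygenase-2, by gavage from week 5, at 7.5 mg/kg (TAA+C7.5) or 30 mg/kg (TAA+C30). With 1 animal in each group no difference has a replicate check and no p-value was computed; intervals cover counting error only, and the day, operator and dissociation of each liver cannot be told apart from its treatment. Where 4 values follow each other, the control comes first, then TAA, then the lower and the higher celecoxib dose. Livers were dissociated with enzymes, red cells were lysed, and most hepatocytes were removed by a slow spin.

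The libraries held 6117 to 6915 barcodes and 17888247 to 48419305 UMIs. After filters 5666, 6460, 5911 and 6062 cells were kept, with medians of 3357, 4571, 1967 and 3100.5 UMIs, and any pair of libraries had 9 to 14 barcodes in common. Cells were grouped into classes by clustering without the 10 members and without the other immediate early, feedback and heat shock genes listed further on, so those genes did not shape the classes. Free RNA differed between the libraries: sinusoidal endothelial markers summed to 449.9, 44.4, 23.5 and 5.23 CPM (UMIs of a gene over all UMIs of the summed cells, on the usual scale) in B cells, which should lack them, and mature neutrophil markers to 74.6, 152.4, 114.1 and 664.2 CPM. Its part in the results was not tested.

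In GRCm38, the build that mm10 names, Junb, Jund and Ier2 share chromosome 8 and the other members lie on a chromosome each. Fos is on chromosome 12 from 85473890 to 85477273 on the plus strand, Jun on chromosome 4 from 95049034 to 95052222 on the minus strand, Junb on chromosome 8 from 84974484 to 84978718 on the minus strand and Nr4a1 on chromosome 15 from 101254269 to 101274795 on the plus strand (GENCODE M21). RefSeq start sites (GRCm38.p6) were matched for 8 of the 10 members, all but Egr1 and Ier2. The 250 bases before the start are shown for Fos and Junb, which were higher in TAA endothelial and Kupffer cells, for Nr4a1, which was lower in several leukocyte classes, and for Jun, which holds no TGACG. Capitals mark TGACG on either strand, the core of the cAMP response element that CREB and ATF factors bind. The 4 windows overlap no annotated exon; that of Nr4a1 lies inside the gene, before an internal start.
Fos, chr12:85473640-85473889, plus strand: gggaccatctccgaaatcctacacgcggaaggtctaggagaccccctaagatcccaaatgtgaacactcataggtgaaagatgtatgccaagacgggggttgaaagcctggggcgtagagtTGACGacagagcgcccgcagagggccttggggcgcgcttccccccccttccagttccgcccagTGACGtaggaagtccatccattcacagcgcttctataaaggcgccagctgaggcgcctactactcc
Junb, chr8:84978749-84978998, minus strand: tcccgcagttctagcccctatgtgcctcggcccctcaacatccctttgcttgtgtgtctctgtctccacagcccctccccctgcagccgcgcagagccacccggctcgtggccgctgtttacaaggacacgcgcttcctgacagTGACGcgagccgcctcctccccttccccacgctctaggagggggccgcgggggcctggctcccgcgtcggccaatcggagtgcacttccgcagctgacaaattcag
Nr4a1, chr15:101266596-101266845, plus strand: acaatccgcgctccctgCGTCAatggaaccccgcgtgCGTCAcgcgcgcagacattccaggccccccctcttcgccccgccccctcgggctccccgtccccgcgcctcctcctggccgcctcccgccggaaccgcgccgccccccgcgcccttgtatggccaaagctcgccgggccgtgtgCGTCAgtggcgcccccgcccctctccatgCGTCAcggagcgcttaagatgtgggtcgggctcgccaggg
Jun, chr4:95052223-95052472, minus strand: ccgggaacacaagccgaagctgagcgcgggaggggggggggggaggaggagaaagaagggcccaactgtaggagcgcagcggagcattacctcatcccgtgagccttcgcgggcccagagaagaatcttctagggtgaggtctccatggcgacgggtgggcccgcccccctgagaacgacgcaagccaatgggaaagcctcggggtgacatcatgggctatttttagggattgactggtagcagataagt
TGACG was found in 5 of the 8 windows (Fos, Fosb, Junb, Atf3 and Nr4a1), against 17.9% of 32536 promoter windows of the same length. It was chosen for display out of 6 searched motifs after the matches had been seen. Nr4a1 held 4 copies, the nearest ending 35 bases before the start, and Fos held 2, the nearest ending 61 bases before it. The full element TGACGTCA (1.56% of all windows), the AP-1 site TGACTCA or TGAGTCA (4.45%) and the CArG box of serum response factor (1.48%) had no match in the 8 windows, each searched on both strands. Bases farther than 250 before the start were not searched, nor were Egr1 and Ier2, so sites may lie outside these windows. TATAAA was matched only in Fos, 27 bases before the start, against 12.3% of all windows. The GC box GGGCGG was in 6 of the 8 windows, all but Junb and Jund, against 33.0% of all windows. These are matches of letters, not measured sites. Among the windows not shown, all 250 bases of that of Fosl2 lie in an annotated Fosl2 exon. Those of Atf3 and Fosb overlap an exon of their own gene by at most 7 and 6 bases, and that of Atf3 lies inside the gene. The Jund window ends at 70697738, well before the annotated gene start at 70698949.

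In the TAA and TAA+C7.5 libraries the members were most abundant in cholangiocytes, the epithelial cells of the bile ducts. The sum over the 10 members there was 12550, 18300, 21540 and 9202 CPM, in 85, 302, 153 and 76 cells. In neutrophils it was 12500, 8910, 11820 and 7768 CPM, so that the control values of both classes were not separated by their intervals. In the TAA+C30 library NK cells or innate lymphoid cells (9782 CPM) lay above cholangiocytes. Hepatocytes, plasmacytoid dendritic cells and plasma cells had the lowest sums, from 965.4 CPM in control hepatocytes to 3063 CPM in TAA+C7.5 plasmacytoid dendritic cells among sums of at least 50 cells. Mast cells or basophils had sums of 32710, 18060, 30770 and 22080 CPM, but only 20, 26, 14 and 21 cells, and were not compared further. The deposited tables give no transcript lengths, and the 3′ tags count 1 molecule per transcript whatever its length, so levels are compared between classes for 1 gene and not read as protein.

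**Figure D1:**
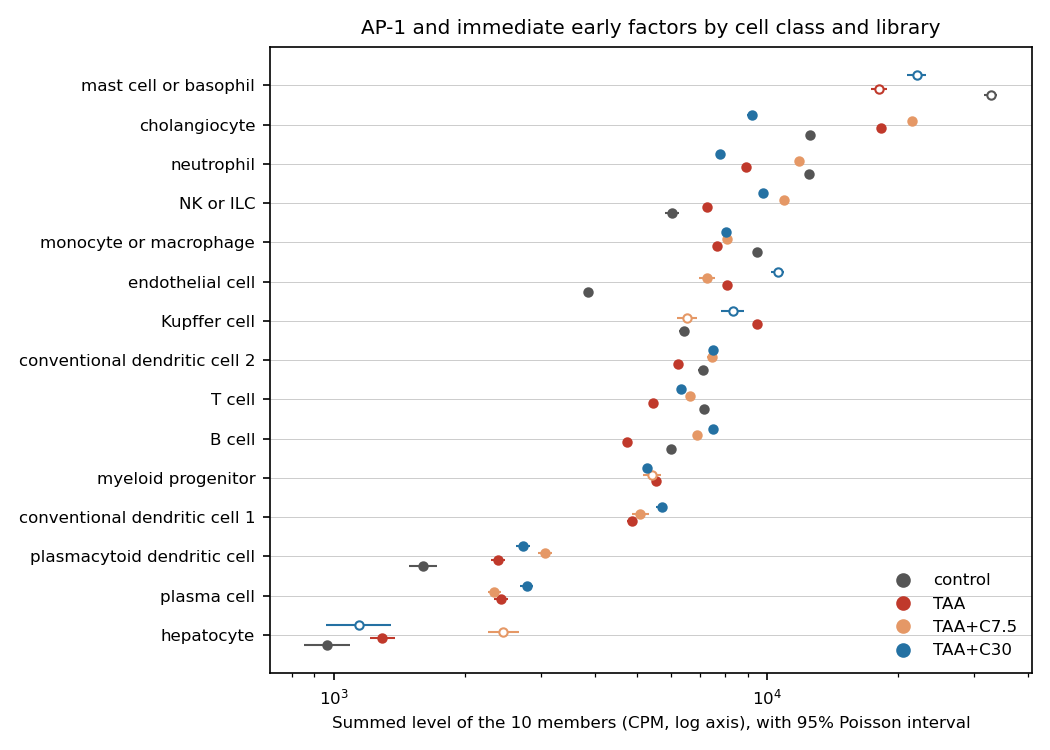
Summed CPM of the 10 members (log axis, with 95% Poisson intervals) for each cell class and library; open symbols are sums of fewer than 50 cells and sums of fewer than 20 cells are left out. Cholangiocytes lie at 9202 to 21540 CPM, and the endothelial sum of the control library (3858 CPM) lies below that of every other library.

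Levels are ranked among classes with 50 or more cells in a library, which leaves out mast cells or basophils and the 30 endothelial cells of the TAA+C30 library among others. Within the Fos family, Fos, the founding partner of Jun, was highest in cholangiocytes in the TAA library (3652 CPM) and the TAA+C7.5 library (4299 CPM), and in monocytes or macrophages in the control library (2459 CPM). In the TAA+C30 library monocytes or macrophages (1858 CPM) and cholangiocytes (1793 CPM) had overlapping intervals. Fosb, whose short splice form is the long-lived ΔFosB of neurons, was highest in cholangiocytes in all 4 libraries, at 1447, 1905, 1888 and 908 CPM. The next class, at 401 to 705 CPM, was separated from it by its interval in each library. Fosl2, which encodes Fra-2, had another distribution. It was highest in neutrophils in the control library (740.5 CPM) and in NK cells or innate lymphoid cells in the others (610.3, 808.7 and 506.4 CPM; not separated from neutrophils in the first 2 of these), with only 30.8 to 64.6 CPM in cholangiocytes.

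In the Jun family, Jun itself was highest in cholangiocytes in every library, at 3098, 4230, 4591 and 2078 CPM, with endothelial cells next in the first 3 (811, 1206 and 1266 CPM; in the control not separated from monocytes or macrophages). Junb, which can restrain Jun at some promoters, was highest in neutrophils in the control and TAA+C7.5 libraries (4570 and 4662 CPM) and in NK cells or innate lymphoid cells in the TAA+C30 library (4473 CPM). In the TAA library these classes had 3208 and 3344 CPM, with overlapping intervals. Jund, which is expressed in resting cells more steadily than its relatives, was highest in a different class in each library: Kupffer cells (1838 CPM), cholangiocytes (2091 CPM), NK cells or innate lymphoid cells (2915 CPM) and B cells (2725 CPM). Only in the TAA and TAA+C30 libraries was the first separated from the next.

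Egr1, a zinc finger factor, was highest in cholangiocytes in every library (2031, 2560, 2299 and 1026 CPM). Atf3, a stress-induced bZIP factor that pairs with Jun, was highest there in the TAA and TAA+C7.5 libraries (1554 and 2255 CPM), while in the control and TAA+C30 libraries neutrophils or conventional dendritic cells 2 had similar levels. Ier2, a short nuclear protein of less known function, was highest in cholangiocytes in the first 3 libraries (542, 771 and 1096 CPM) and in NK cells or innate lymphoid cells in the TAA+C30 library (735 CPM). Nr4a1, an orphan nuclear receptor needed for patrolling monocytes, was low in cholangiocytes (55.2 to 216 CPM). In the cluster of patrolling monocyte-like cells, led by Ace, Cd300e and Adgre4, it stood at 2184, 1936, 2261 and 2183 CPM, in 96, 154, 129 and 102 cells.

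Thioacetamide was compared with saline in 11 classes, over 106 pairs of a member and a class. A value is called higher or lower at a fold of 1.5 on the scale log2(CPM + 10), for genes with 30 or more UMIs summed over the 2 libraries and classes with 50 or more cells in each. The scale understates differences of low genes. By that rule 34 pairs (32.1%) were higher and 16 (15.1%) lower in the TAA library, against 7.94% and 9.64% of all gene and class pairs. With trimmed mean scaling (TMM), which moved the ratios of 10 of the 11 classes upward by 0.02 to 0.27, 43 were higher and 12 lower. The higher values fell mostly in endothelial cells, Kupffer cells and plasmacytoid dendritic cells, with 7 members each, and the lower ones in B cells (5), T cells (3) and monocytes or macrophages (3).

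**Figure D2:**
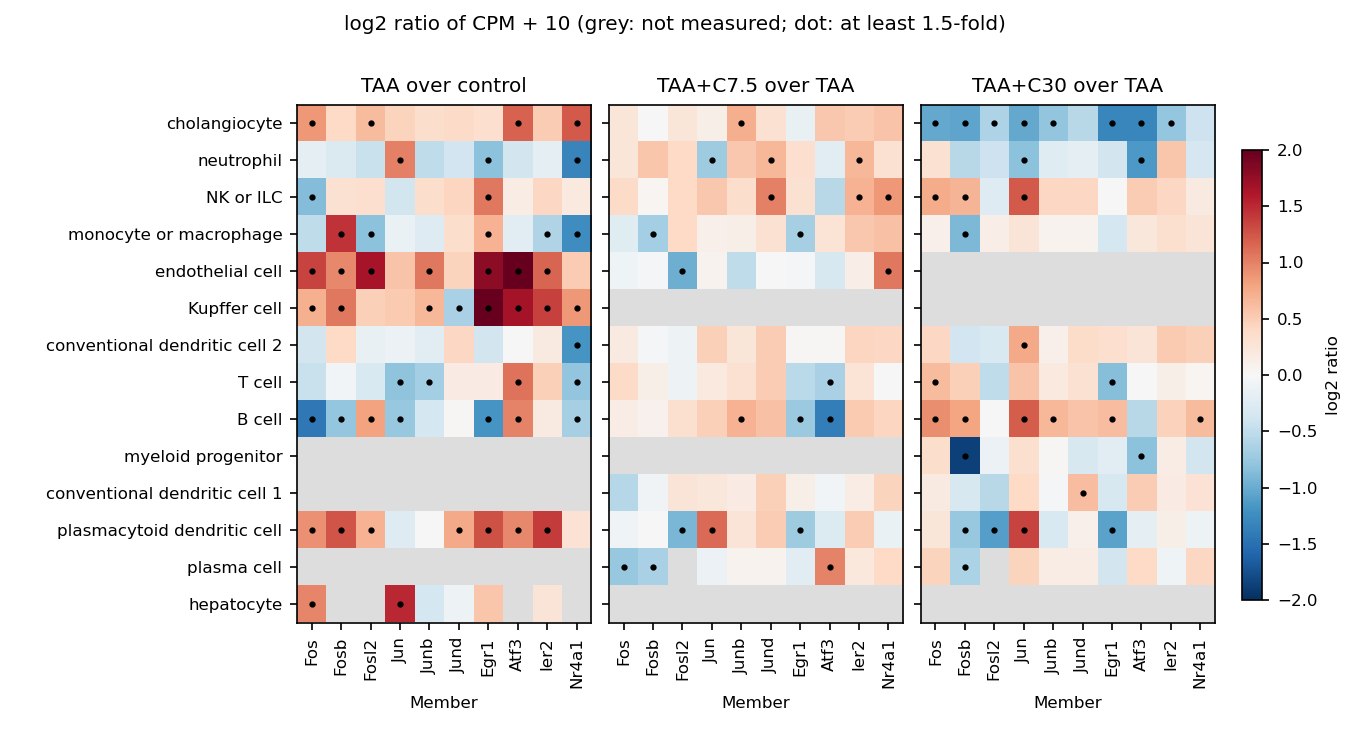
Log2 ratio of CPM + 10 for each member (columns) and cell class (rows) in TAA over control, TAA+C7.5 over TAA and TAA+C30 over TAA; dots mark a fold of at least 1.5 and grey marks pairs not measured. Endothelial and Kupffer cells are red in the first panel, apart from Jund in Kupffer cells, and cholangiocytes are blue in the third, with 8 of 10 members past the fold.

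In endothelial cells 7 members were higher and none lower in the TAA library (background 6.37% higher, or 10.6% among genes with a mean of at least 100 CPM). Fos was at 605 CPM in the control library and 1558 CPM in the TAA library, 2.57 times higher (95% interval 2.49 to 2.67). Egr1 went from 329 to 1163 CPM, 3.54 times higher (3.39 to 3.70), and Atf3 from 40.7 to 221 CPM, 5.42 times higher (4.84 to 6.09). Fosl2 was 3.45 times higher (3.13 to 3.81), Ier2 2.39 times, Junb 2.10 times and Fosb 2.04 times. Jun (811 and 1206 CPM), Jund (736 and 1010 CPM) and Nr4a1 (36.4 and 56.1 CPM) did not reach the fold. The median over the members was a log2 ratio of 1.12, beside -0.04 over all 12219 genes measured.

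The endothelial class held different cells in the 2 libraries. Of its 2293 control cells 1705 lay in a cluster of sinusoidal cells led by Cyp26b1, Ehd3 and Kdr, which held 17 TAA cells, while 221 of the 304 TAA cells lay in a vascular cluster led by Ednrb, Dcn and Selp. Within that vascular cluster, which held 137 control cells, Fos was at 806 and 1613 CPM, Egr1 at 416 and 1231 CPM, Atf3 at 46.6 and 231 CPM, and Fosl2 at 89.0 and 246 CPM. Junb was at 1342 and 2235 CPM. Fosb (226 and 237 CPM), Ier2 (191 and 232 CPM) and Jun (1131 and 1260 CPM) differed little there, and with clusters given the same weight in both libraries, which here leaves the vascular cluster alone, the median log2 ratio of the members was 0.56. That cluster also held fibroblast-like cells. In a finer clustering (Leiden resolution 2), examined by cluster after the values had been seen, 51 control and 12 TAA cells formed a cluster. It was led by Dcn, Igfbp5 and Rspo3, with Col3a1 and Col1a2. Its control cells had Fos at 468 CPM and Fosb at 154 CPM, below the control cells of the vascular cluster. Its 12 TAA cells had 2545 and 1327 CPM, above the TAA cells of that cluster. At that resolution another endothelial cluster, led by Ednrb, Armcx4 and Selp, held 88 control and 233 TAA cells. It shared leading genes with the vascular cluster but was not the same set of cells. Its best marker set was that of sinusoidal endothelial cells. Fos was at 1010 and 1547 CPM there, just past the fold. Egr1 was at 476 and 1197 CPM, Atf3 at 48.2 and 222 CPM, and Fosl2 at 116 and 248 CPM there, also past it. Junb, at 1539 and 2180 CPM, was not, nor were Fosb (268 and 198 CPM) and Ier2 (225 and 226 CPM). The 74 endothelial cells of the TAA+C7.5 library had Fos at 1462 CPM, Egr1 at 1127 CPM and Atf3 at 174 CPM. Endothelial cells had medians of 5011 and 11123 UMIs. After each cell was thinned to 1000 UMIs, which left out 102 and 33 cells, Egr1 was found in 16.8% of control cells (exact 95% interval 15.3% to 18.5%) and 38.8% of TAA cells (32.9% to 44.8%), and unthinned in 35.4% and 62.2%. No class here is known to lack Egr1; plasmacytoid dendritic cells, thinned in the same way, had 0 of 53 and 1.48% of 135 cells.

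**Figure D3:**
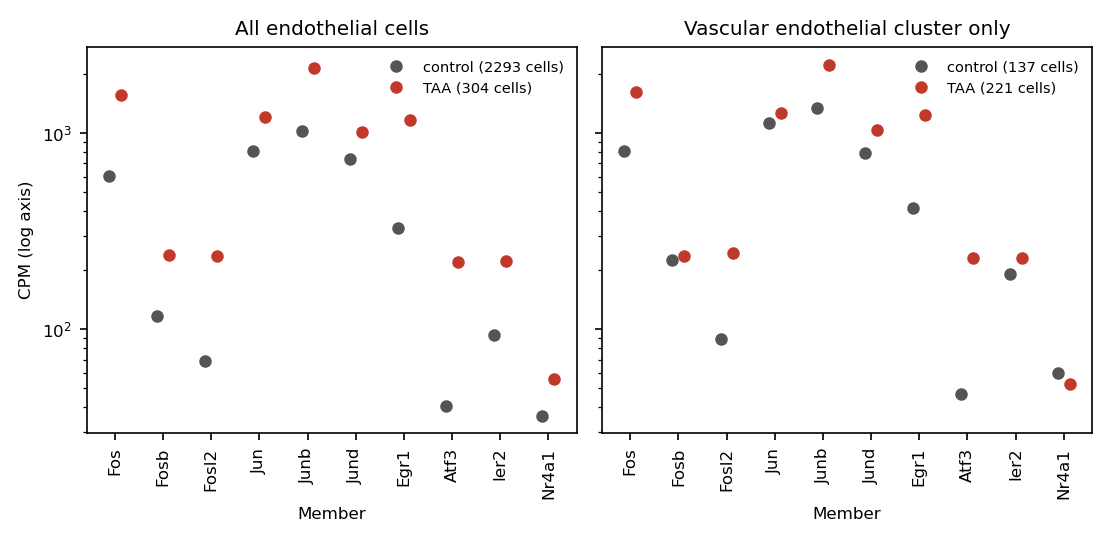
CPM of each member (log axis) in control and TAA libraries, in all endothelial cells (left) and in the vascular cluster alone (right), which at this resolution includes fibroblast-like cells. Fos, Fosl2, Egr1 and Atf3 are apart in both panels; Fosb and Ier2 come close together on the right.

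Other genes of the response moved with them in endothelial cells. Of 24 measured genes among the other immediate early genes 11 were higher and none lower, led by Myc (8.01 to 131 CPM) and Csrnp1 (32.8 to 180.4 CPM). Of 14 feedback genes, which shut down mitogen kinases, NF-kB or the short-lived messages, 7 were higher, led by Tnfaip3 (58.6 to 357.2 CPM) and Socs3 (212.9 to 897.5 CPM), and 1, Dusp4, was lower. Of 16 AP-1 target genes 9 were higher, including Cxcl2 (11.6 to 83.7 CPM) and Il1b (9.97 to 49.7 CPM); both are made by neutrophils, and both were also higher in TAA B cells. None of 17 upstream kinases and factors passed the fold. Of 14 heat shock genes 3 were lower and none higher, and they summed to 4991 and 3934 CPM.

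Kupffer cells, the resident macrophages of the sinusoids, had 7 members higher and 1 lower in the TAA library (background 15.9% higher and 14.2% lower; 20.5% higher among genes with a mean of at least 100 CPM). Egr1 was at 164 and 762 CPM, 4.65 times higher (3.88 to 5.61), Atf3 at 105 and 356 CPM, 3.39 times higher (2.69 to 4.32), and Ier2 at 108 and 293 CPM, 2.72 times higher (2.15 to 3.47). Fosb, Nr4a1, Fos and Junb were 2.12, 1.85, 1.64 and 1.58 times higher. Jund was the exception, at 1838 and 1164 CPM, 1.58 times lower (1.47 to 1.70). The median log2 ratio of the members was 0.79, beside -0.01 over all 7429 genes measured.

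The control Kupffer cells were shallow, with a median of 1408 UMIs in 375 cells against 10108 UMIs in 137 TAA cells, and had 9.42% and 2.89% mitochondrial UMIs. Among cells thinned to 1000 UMIs, which left out 117 and 8, Egr1 was found in 8.14% (5.11% to 12.2%) and 34.1% (26.0% to 43.0%), against 16.5% and 60.6% unthinned, and Jund in 66.3% and 60.5%. Of 22 other immediate early genes 10 were higher, led by Gadd45b (38.8 to 242.1 CPM), and 1, Cebpb, was lower. Of 18 AP-1 targets 11 were higher, among them Mmp12 (17.5 to 430.4 CPM) and Vim (65.1 to 475.4 CPM), and 1, Hmox1, was lower. Mmp12 was also among the leading genes of the macrophage cluster led by Ms4a7, C1qb and Gpnmb, which held 27 control and 649 TAA cells, and the part of such cells was not tested. At Leiden resolution 2 the Kupffer cell cluster held 374 control and 95 TAA cells, with Mmp12 at 5.13 and 69.1 CPM, Egr1 at 163 and 1093 CPM, Atf3 at 100.1 and 308 CPM and Jund at 1867 and 1323 CPM, the last no longer past the fold. Heat shock genes had 2 of 13 higher and 3 lower, and sums of 4793 and 4398 CPM. Only 43 and 25 Kupffer cells were kept in the celecoxib libraries, too few for a comparison.

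Cholangiocytes had 4 members higher and none lower in the TAA library (background 5.11%). Nr4a1 was at 55.2 and 142 CPM, 2.57 times higher (1.98 to 3.39), Atf3 at 679 and 1554 CPM, 2.29 times higher (2.12 to 2.47), Fos at 2007 and 3652 CPM, 1.82 times higher (1.74 to 1.90), and Fosl2 at 30.8 and 53.2 CPM, 1.73 times higher (1.21 to 2.55). Their sum of heat shock genes was 6822 and 6562 CPM. Plasmacytoid dendritic cells, 53 and 136 of them, had 7 higher (background 9.17%), among them Ier2 (31.1 to 98.1 CPM) and Fosb (64.4 to 167 CPM). The counts behind them were small, 14 and 126 UMIs for Ier2, and the 2.18-fold difference of Fosl2 had an interval of 0.84 to 7.17. After thinning to 1000 UMIs these cells carried a mean of 1.40 and 1.47 members, and the median log2 ratio of the members, 0.83 over all UMIs and 10 members, was 0.23 over the 5 that still had enough UMIs. Hepatocytes, of which the preparation removed most, had Fos and Jun higher among 6 members measured (background 27.1%), from 27 and 22 UMIs in the control library. With each cell given the same weight these 2 log2 ratios were -1.20 and -0.19.

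In B cells 5 members were lower and 2 higher (background 6.68% lower, or 11.5% among genes with a mean of at least 100 CPM, and 2.51% higher). Fos was at 493 and 177 CPM, 2.79 times lower (2.57 to 3.04), and Egr1 at 326 and 139 CPM, 2.35 times lower (2.13 to 2.60). Fosb, Jun and Nr4a1 were 1.79, 1.71 and 1.59 times lower. Fosl2 (25.3 and 51.8 CPM) and Atf3 (21.6 and 52.8 CPM) were higher. Most control B cells (771 of 892) lay in a cluster led by Chst3 and Pax5 that held 22 TAA cells. In the other B cell cluster, with 121 control and 1329 TAA cells, Fos was at 528 and 175 CPM and Egr1 at 304 and 140 CPM, so these members were lower there too.

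Heat shock genes were also lower in TAA B cells: 6 of 12 were lower and none higher, led by Hspa1b (458.1 to 68.9 CPM), with sums of 5010 and 3574 CPM. Feedback genes had 6 of 12 lower, led by Zfp36l2 (990.5 to 239.1 CPM), and 2 higher. T cells had 3 members lower and 1 higher (background 6.49% and 2.82%). Jun was at 732 and 415 CPM, Nr4a1 at 501 and 286 CPM and Junb at 3405 and 2121 CPM, while Atf3 stood at 10.0 and 32.4 CPM. Their heat shock genes were lower in 6 of 13, with sums of 8706 and 5531 CPM. The members differed between T cell clusters. In that led by Lef1, Dapl1 and Tcf7, with 163 control and 281 TAA cells, none of these 3 lower members passed the fold. Jun was at 561 and 467 CPM there, Nr4a1 at 157 and 148 CPM and Junb at 1969 and 1799 CPM. Junb was at 5659 and 2953 CPM in the cluster led by Il17a and Icos, and at 4015 and 2154 CPM in that led by Klrc1 and Ccl5. The part of the dissociation in these lymphocyte differences was not tested.

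In monocytes or macrophages 2 members were higher and 3 lower (background 7.71% and 9.78%). Fosb was 2.81 times higher (2.48 to 3.21), at 199 and 559 CPM, and Nr4a1 2.39 times lower (2.27 to 2.52), at 1386 and 579 CPM. The makeup of the class differed: the cluster led by Gpnmb and Trem2 markers held 27 control and 649 TAA cells, and patrolling monocytes 96 and 154. With clusters given the same weight in both libraries Fosb had a log2 ratio of -0.13 and Egr1 of -0.17, where the class as a whole gave 1.45 and 0.70. Nr4a1 had -0.43 by those weights, not past the fold. Within the Gpnmb cluster Fosb was at 937 and 742 CPM, in classical monocytes at 110 and 226 CPM and in patrolling monocytes at 53.8 and 147 CPM. Nr4a1 was at 579 and 422 CPM in the Gpnmb cluster, at 980 and 545 CPM in classical monocytes and at 2184 and 1936 CPM in patrolling monocytes.

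Neutrophils had 1 member higher and 2 lower (background 9.02% and 9.61%). Jun was at 189 and 391 CPM, 2.07 times higher (1.73 to 2.49). Nr4a1 was at 1737 and 692 CPM, 2.51 times lower (2.34 to 2.70), and Egr1 at 892 and 500 CPM, 1.78 times lower (1.62 to 1.96). Nr4a1 was also 2.28 times lower (2.10 to 2.48) in conventional dendritic cells 2, at 1153 and 505 CPM. It was lower in 5 of the 10 classes in which it was measured, namely neutrophils, monocytes or macrophages, conventional dendritic cells 2, T cells and B cells (in monocytes or macrophages not past the fold with clusters given the same weight), and higher in 2, cholangiocytes and Kupffer cells. Atf3 was higher in 6 of 10 (endothelial, Kupffer, cholangiocyte, plasmacytoid dendritic, B and T cells) and lower in none.

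Both celecoxib libraries were compared with the same TAA library, so their ratios share its counts and are given side by side. At 7.5 mg/kg 10 of 109 pairs were higher and 11 lower (background 4.04% and 4.31%), and no class had more than 3 members past the fold in 1 direction. At 30 mg/kg 13 pairs were higher and 18 lower (background 3.04% and 5.40%), with 8 of the lower ones in cholangiocytes and 6 of the higher ones in B cells. At each dose 11 classes were compared (endothelial cells only at the lower, myeloid progenitors only at the higher). Over them the median log2 ratio of Jund was 0.50 at the lower and 0.15 at the higher dose. That of Ier2 was 0.50 and 0.16, Nr4a1 0.42 and 0.18, and Junb 0.26 and 0.07. Medians of Fosl2 (0.25 and -0.37, over 10 classes), Fosb (-0.01 and -0.55) and Egr1 (-0.15 and -0.35) were also lower at the higher dose. Those of Fos (0.15 and 0.35), Jun (0.20 and 0.45) and Atf3 (-0.23 and -0.004) went the other way.

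In cholangiocytes of the TAA+C30 library 8 members were lower and none higher than in the TAA library (background 4.93%, or 4.40% among genes with a mean of at least 100 CPM). Egr1 was at 2560 CPM in TAA and 1026 CPM in TAA+C30, 2.50 times lower (2.32 to 2.69), and Atf3 at 1554 and 625 CPM, 2.49 times lower (2.26 to 2.74). Fosb was 2.10 times lower (1.94 to 2.27), Fos 2.04 times (1.93 to 2.16) and Jun 2.04 times (1.93 to 2.15). Junb, Ier2 and Fosl2 were 1.74, 1.73 and 1.70 times lower. Jund (2091 and 1424 CPM) and Nr4a1 (142 and 103 CPM) did not reach the fold. The median log2 ratio was -0.91, beside -0.03 over all 11409 genes measured.

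At 7.5 mg/kg the cholangiocyte levels lay near or above those of the TAA library instead: Fos was at 4299 CPM, Jun at 4591 CPM, Atf3 at 2255 CPM and Junb at 2229 CPM, and Junb alone passed the fold, 1.66 times higher (1.59 to 1.73). Set against each other, all 10 members were lower in the TAA+C30 than in the TAA+C7.5 library (background 5.88%), from 1.82 times for Jund to 3.61 times for Atf3. The control levels were 2031 CPM for Egr1 and 1447 CPM for Fosb, each more than 1.5 times the TAA+C30 level. For Fos, Jun, Jund and Atf3 the control level was above that of TAA+C30 by less than 1.5 times. For Nr4a1 it was below, at 55.2 CPM. Of the cholangiocytes 584 lay in 1 cluster, and within it Fos was at 3652 and 1522 CPM and Egr1 at 2560 and 986 CPM in the TAA and TAA+C30 libraries. The remaining 32 cells formed a cluster led by Dmbt1, Chil4 and Spink4 with 18 cells of the TAA+C7.5 and 14 of the TAA+C30 library.

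**Figure D4:**
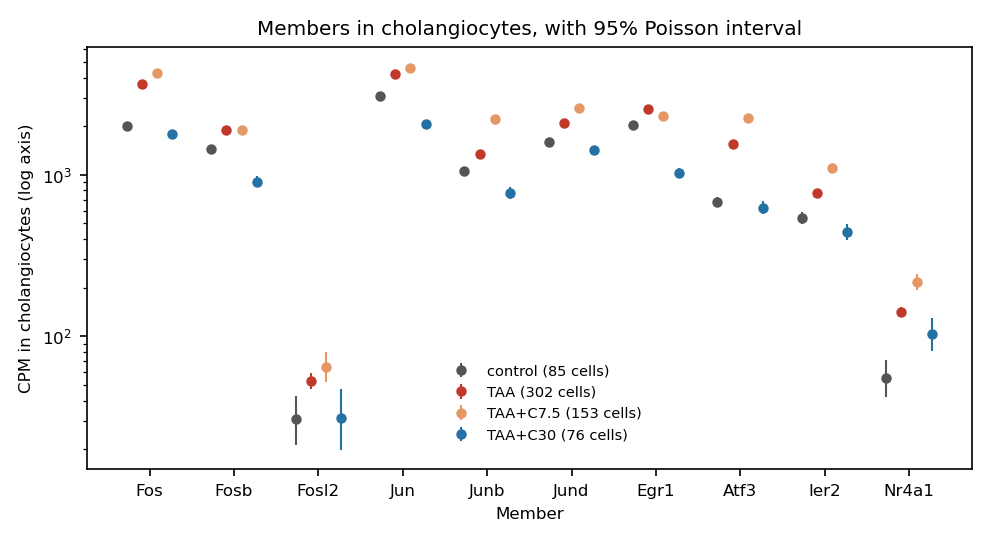
CPM of each member in cholangiocytes (log axis) in the 4 libraries, with 95% Poisson intervals. For each member the TAA and TAA+C7.5 values lie above the TAA+C30 value, as for Egr1 at 2560, 2299 and 1026 CPM.

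Among other genes in these cholangiocytes, 16 of 25 other immediate early genes were lower and none higher in TAA+C30 than in TAA, led by Klf2 (147.1 to 53.0 CPM) and Myc (48.3 to 17.7 CPM). Of 14 feedback genes 4 were lower, led by Dusp6 (151.6 to 61.2 CPM). No upstream kinase or factor passed the fold, and of 14 AP-1 targets 3 were higher, including Ccl3 (11.5 to 50.3 CPM), and 1, Ccl2, was lower. Ccl3 was also among the leading genes of mast cells or basophils, and the part of free RNA was not tested. Heat shock genes did not move with the members: 2 of 14 were higher, Hspa1a (330.9 to 665.9 CPM) and Hspa1b (339.7 to 604.8 CPM), 1, Dnajb1, was lower, and the sums were 6562 and 6667 CPM. In the TAA+C7.5 library the heat shock sum was 9837 CPM.

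In B cells of the TAA+C30 library 6 members were higher and none lower than in TAA (background 1.26%, or 3.11% among genes with a mean of at least 100 CPM). Jun was at 241 and 575 CPM, 2.38 times higher (2.18 to 2.60), Fos at 177 and 344 CPM, 1.95 times higher (1.75 to 2.17), and Fosb at 84.5 and 153 CPM, 1.81 times higher (1.54 to 2.13). Junb, Egr1 and Nr4a1 were 1.59, 1.58 and 1.56 times higher. Against the TAA+C7.5 library 5 were higher (background 1.09%), with Egr1 at 78.5 and 219 CPM. Heat shock genes were higher as well, 7 of 12 against TAA and none lower, led by Hspa1a (71.5 to 470.2 CPM), with sums of 3574 CPM in TAA and 5832 CPM in TAA+C30. In B cells members and heat shock genes were therefore both lower in TAA than in control and both higher in TAA+C30 than in TAA. The same held for T cells (log2 ratios -0.39 and 0.21 for members, -0.65 and 0.77 for heat shock genes), conventional dendritic cells 2 and monocytes or macrophages. Heat shock sums were lower in TAA than in control in every class compared but hepatocytes. In TAA+C30 they were higher than in TAA in every class but plasma cells (0.02 in cholangiocytes). Summed members did not follow everywhere, as in endothelial cells (1.06 in TAA over control) and cholangiocytes (-0.99 in TAA+C30 over TAA). The part of dissociation was not tested.

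NK cells or innate lymphoid cells had 3 members higher at each dose (background 5.83% at 7.5 mg/kg and 2.80% at 30 mg/kg), but different ones. At 7.5 mg/kg these were Jund (1444 to 2915 CPM), Nr4a1 (496 to 909 CPM) and Ier2 (548 to 892 CPM). Heat shock genes had 5 of 12 higher and none lower at that dose, with sums of 6232 and 8564 CPM. Their sums were also above TAA in every other class compared at 7.5 mg/kg. At 30 mg/kg the 3 higher members were Jun (393 to 935 CPM), Fos (168 to 287 CPM) and Fosb (105 to 173 CPM), with heat shock sums of 6232 and 10530 CPM. T cells at 30 mg/kg had summed members higher by a log2 ratio of 0.21 and heat shock genes by 0.77. Plasmacytoid dendritic cells at 30 mg/kg had Jun higher, at 244 and 634 CPM, 2.60 times (2.27 to 2.99), and Fosb, Fosl2 and Egr1 lower (background 2.75% higher and 3.79% lower). Their Jun was at 547 CPM at 7.5 mg/kg. Levels of the lower members were small: Fosb at 167 and 95.1 CPM, Fosl2 at 24.1 and 5.95 CPM and Egr1 at 56.9 and 21.8 CPM. Under alternative processing settings Fosb kept the fold in 12 of 16, Fosl2 in 10 of 14 and Egr1 in 13 of 14.

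**Figure D5:**
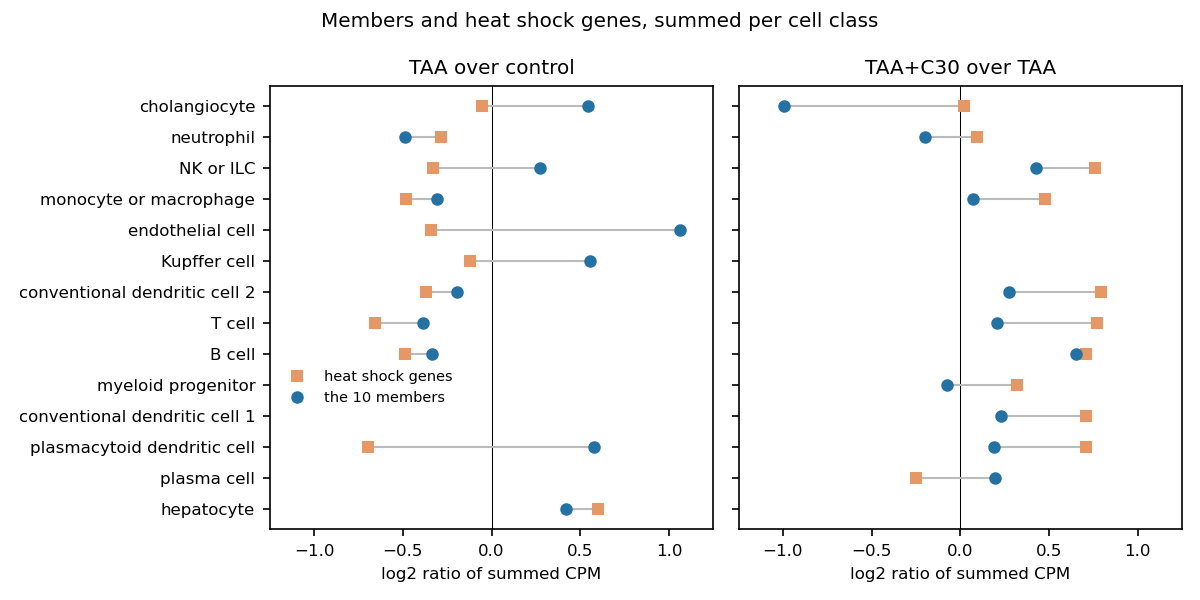
Log2 ratio of summed CPM of the 10 members (circles) and of the heat shock genes (squares) per cell class, in TAA over control and TAA+C30 over TAA. In TAA over control the endothelial ratios are 1.06 and -0.34 and the B cell ratios -0.34 and -0.49; in TAA+C30 over TAA the cholangiocyte ratios are -0.99 and 0.02.

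Neutrophils had Atf3 (552 and 244 CPM) and Jun (391 and 218 CPM) lower in TAA+C30 than in TAA (background 20.1%), and 7 members lower than in TAA+C7.5 (background 19.2%). TMM scaling moved neutrophil ratios of TAA+C30 up by 0.43 against either library, a larger shift than in any other class. An immature cluster led by Ngp held 400 of 1118 TAA+C30 neutrophils, 46 of 1147 in TAA and 47 of 582 in TAA+C7.5. Its Atf3 was at 29.0 to 29.6 CPM in TAA and TAA+C30, against 491 to 783 CPM in the mature clusters of those libraries. With clusters given the same weight, the log2 ratios of Atf3 and Jun against TAA were 0.08 and 0.04. Against TAA+C7.5 the median log2 ratio of the members was -0.74 over all neutrophils, and -0.06 with equal cluster weights or without the Ngp-led cluster; none of the 7 members lower there passed the fold in either case. The class named myeloid progenitors, 66 and 129 cells, had Fosb at 439 and 113 CPM, 3.88 times lower (3.28 to 4.60) in TAA+C30, and Atf3 at 369 and 205 CPM. Its makeup differed. At Leiden resolution 2 the cluster led by Elane, Prtn3 and Mpo held only 22 TAA cells, too few for a comparison, and 131 TAA+C30 cells. Dendritic cell clusters with Top2a and Mki67 among their leading genes held 15 and 31 TAA cells, and 3 and 8 TAA+C30 cells. TAA conventional dendritic cells 2 had Fosb at 532 CPM and Atf3 at 554 CPM. The part of such cells was not tested.

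The celecoxib libraries set against each other had 11 of 98 pairs higher and 23 lower in TAA+C30 (background 2.69% and 5.28%), and 13 higher and 14 lower with TMM scaling. Of the lower pairs 10 lay in cholangiocytes and 7 in neutrophils; without the Ngp-led neutrophil and Dmbt1-led cholangiocyte clusters 16 were lower, none of them in neutrophils.

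Single cells carried several members at once. In cells thinned to 1000 UMIs, 5 or more of the 10 members were found in 43.4%, 66.3%, 68.7% and 33.8% of cholangiocytes, and in 63.1%, 43.1%, 58.3% and 42.7% of neutrophils. In endothelial cells the share was 9.04% in the control and 32.8% in the TAA library, and in Kupffer cells 21.3% and 49.6%. The exact 95% intervals were 60.5% to 71.8% for TAA and 23.2% to 45.7% for TAA+C30 cholangiocytes. B cells had 15.3%, 7.54%, 11.6% and 22.4%. Hepatocytes and plasmacytoid dendritic cells, with 1.32% to 3.90%, and plasma cells, with 0 of 50 to 1.67%, were at the low end. In cholangiocytes and neutrophils the libraries had the same order in these shares as in the summed CPM, whereas in B cells the control library lay above TAA+C7.5 by share and below it by CPM.

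Over 47 sums of a class and a library, the members did not all vary together. The Pearson correlation of log2(CPM + 10) was 0.90 between Fos and Atf3, 0.88 between Fosl2 and Junb and 0.85 between Fosb and Atf3, but 0.03 between Fos and Jund and -0.08 between Jun and Nr4a1. Among 3644 other genes, those most like the mean of the members were Ifrd1 (0.82), Dusp1 (0.78), Lmo4 (0.78), Btg2 (0.76), Maff (0.75), Klf10 (0.74), Rgs2, Cmip, Klf6 and Midn (0.73 each). The least like it were Trabd (-0.71), Cdv3 (-0.69) and Rexo2 (-0.67). Dusp1 encodes a phosphatase that switches off mitogen kinases, and Btg2, Maff, Klf10 and Klf6 belong to the list of other immediate early genes. The sums share libraries, classes and depth, so these correlations describe the 4 libraries only.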

How the data were processed

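The deposited values are whole-number counts of UMIs per gene and cell barcode, made by the authors with Cell Ranger 3.1.0 on mm10, per the submitters' processing notes; the library kit was 10x 3′ v2, per the labels' protocols. Barcodes with under 200 genes or over 20% mitochondrial UMIs and Scrublet doublets were removed. Cells were clustered with Scanpy 1.11.5 (2000 variable genes, 30 principal components, Leiden resolution 1.0) without 64 immediate early, feedback and heat shock genes, and named from 25 marker sets; 29 clusters became 32, of which 3 stayed unnamed. UMIs were summed per library and class. Intervals are exact Poisson for levels, exact conditional binomial for ratios and Clopper-Pearson for shares, at 95%, and cover counting error only. The ratio code was tested on simulated counts. TMM used edgeR 4.0.16. All 10 members are named, and for each list of other genes at most 2 at either end of the log2 ratio. The members and lists were chosen with earlier results of these data known. The background among genes of at least 100 CPM, the classes whose own background is given and the 2-fold rule for opposite directions were chosen after seeing the data. Alternatives covered scaling, the added CPM, filters, clustering, class makeup, depth and the fold. A second per-sample expression table was not used.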

Additional observations from a re-analysis of the deposited data

Results flagged for a closer look

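Each difference here is between log2 ratios of 2 cell classes in the same comparison, taken where a member was at least 2-fold higher in one class and 2-fold lower in another; with 1 library per group the difference was not tested in any of them. In TAA against control, Fos differed by 2.78 between endothelial cells (1.35) and B cells (-1.43), Egr1 by 3.33 between Kupffer cells (2.15) and B cells (-1.18), and Nr4a1 by 2.54 between cholangiocytes (1.22) and neutrophils (-1.32). In TAA+C30 against TAA, Jun differed by 2.37 between plasmacytoid dendritic cells (1.34) and cholangiocytes (-1.02). In TAA+C30 against TAA+C7.5, cholangiocytes were the low class for Fos (2.47, against plasma cells), Egr1 (2.53, against B cells) and Atf3 (2.90, against NK cells or innate lymphoid cells).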

How the results depend on the processing

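The 136 member values past the fold were recomputed under 16 settings (114 to 136 of them in each), 2 of them added after seeing the data (leaving out the Ngp-led neutrophil and Dmbt1-led cholangiocyte clusters, and a denominator of nuclear-encoded UMIs). Without reversing, 32 of 136 lost the fold with 50 CPM added, 20 of 136 with clusters given the same weight and 17 of 136 with TMM scaling. After thinning to 1000 UMIs 20 of 114 lost it. With classes from marker scores 18 of 134 did, and with each cell weighted equally 18 of 136. With a fold of 2 the higher and lower counts were 20 and 5 for TAA against control, 3 and 1 for TAA+C7.5 against TAA, 3 and 9 for TAA+C30 against TAA, and 3 and 8 for TAA+C30 against TAA+C7.5, fewer by construction. With 50 CPM added, 5 were lower in TAA+C7.5 against TAA and 7 higher in TAA+C30 against TAA+C7.5. With clusters given the same weight in both libraries, 7 were lower in TAA+C7.5 against TAA and 14 in TAA+C30 against TAA+C7.5; TMM scaling also gave 14 in the latter. Reversed values under equal cluster weights were, for TAA against control in monocytes or macrophages, Fosb -0.13, Egr1 -0.17 and Ier2 0.0089; for neutrophils in TAA+C30 against TAA, Jun 0.036 and Atf3 0.082; and in TAA+C30 against TAA+C7.5, Egr1 0.067 and Atf3 0.087, or 0.044 and 0.074 without the Ngp-led cluster. With each cell weighted equally, hepatocyte Fos was -1.20 and Jun -0.19. The cause was not tested. The member median stayed between 0.56 and 1.31 in endothelial cells, 0.69 and 0.98 in Kupffer cells and -0.53 and -0.35 in B cells (TAA against control), and between -1.11 and -0.87 in cholangiocytes and 0.58 and 0.65 in B cells (TAA+C30 against TAA), while that of neutrophils ran from -0.38 to 0.40. In plasmacytoid dendritic cells it ran from 0.23 to 1.00 (TAA against control). No library could be left out, and no paired analysis was possible because each group has 1 library.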

Other observations

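Barcodes removed for over 20% mitochondrial UMIs, 678, 193, 24 and 47 in the 4 libraries, had summed members at 3722, 7374, 8006 and 12060 CPM of nuclear-encoded UMIs, against 5845, 8140, 8154 and 7283 CPM in kept cells. Of the 3 unnamed clusters, one led by hemoglobin genes held 618 control cells and had a member sum of 1130 CPM. Its best marker set was that of sinusoidal endothelial cells, and its cells were shallow, with a median of 833 UMIs. They were not counted in the endothelial class.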
